A study of Mus musculus with 4 samples.

Results

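The expression of 10 genes of the 2-cell (2C) state was followed through 4 RNA-seq libraries of E14 mouse embryonic stem cells (ESCs): *Arg2*, *Calhm3*, *Fam124a*, *Ubtfl1*, *Sp110*, *Zfp352*, *Tmem92*, *0610040J01Rik*, *Gm4971* and *Gm5698*. They were listed by symbol, as 2C genes that do not belong to the large repeated families such as *Zscan4* or *Usp17l*, and all 10 were found among the 50559 genes of the deposited count table. They were chosen by measured values as well as by name, since their ratios in these same libraries were known when the list was made. Their ratios are therefore given as descriptions. In the control library, shScram+EV, cells carried a scrambled hairpin and an empty vector. In the knockdown library, shYthdf2+EV, the hairpin was directed at *Ythdf2*. The rescue libraries added a vector for wild-type YTHDF2 (shYthdf2+DF2WT) or for YTHDF2 with a mutated m6A-binding site (shYthdf2+DF2Mut) to the knockdown. Every group was made in E14 cells kept on gelatin in serum replacement and leukemia inhibitory factor, and the study's lines carry a tdTomato reporter driven by the MERVL promoter and a lentiviral hairpin under puromycin selection. Each group had 1 library. No difference below has a replicate check, no p-value was computed, and each 95% interval covers counting error alone. The labels do not say which of the study's *Ythdf2* hairpins was used.

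A small share of ESCs in culture passes through a 2C-like state, in which transcripts of the 2-cell embryo appear. That is the stage at which the mouse embryo begins to transcribe its own genome, and the transcription factor DUX and the MERVL retrotransposon are its best known marks. YTHDF2 recognises N6-methyladenosine (m6A) on RNA in the cytoplasm and brings such RNA to deadenylation and decay. The libraries address whether these transcripts accumulate when *Ythdf2* is knocked down, and whether the return of YTHDF2 lowers them with and without its hold on m6A.

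The libraries held between 31533129 and 35742335 reads. *Ythdf2* itself had 2806 reads in the control, 662 in the knockdown, 7661 with wild-type and 6925 with mutant YTHDF2, so it was low in the knockdown library and above the control in both rescue libraries. Its ratio on knockdown was -2.27 on the log2 scale (95% interval -2.45 to -2.10). Among markers of the labelled cell type, the pluripotency genes *Pou5f1*, *Nanog*, *Sox2*, *Esrrb*, *Klf4*, *Zfp42* and *Tfcp2l1* summed to between 4248 and 4372 counts per 1000000 reads (CPM, scaled by TMM) in every library, with 0 of the 7 genes at least 2-fold changed on knockdown. The 6 markers of primitive endoderm summed to 10.2 to 16.5 CPM, lowest in shYthdf2+DF2WT and highest in shYthdf2+EV, and *Foxa2* was at 0 reads in shScram+EV. The 7 markers of trophectoderm summed to 100.01 to 142.28 CPM, lowest in shYthdf2+EV, and the 6 of fibroblasts to 10.9 to 16.6 CPM, highest in shScram+EV. Among the fibroblast markers, *Col3a1* was at 0 reads in shScram+EV and shYthdf2+DF2WT, and *Twist2* was at 0 in both rescue libraries. The part of these marker levels in the results was not tested. Reads of 7 Y-linked genes were also low in the control and the wild-type rescue and high elsewhere, with 4 reads in the control library, 672 in the knockdown, and 105 and 602 in the wild-type and mutant rescues. Their part in the results was not tested. In bulk RNA a larger number of 2C-like cells and more RNA per cell cannot be told apart.

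Summed, the 10 genes made up 43.2 CPM in the control, 167.2 in the knockdown, 61.1 in the wild-type rescue and 140.7 in the mutant rescue. The knockdown and the mutant rescue were high, and the control and the wild-type rescue were low. Of the excess of shYthdf2+EV over shScram+EV, 14.4% remained in the wild-type rescue and 78.6% in the mutant rescue. All 10 genes passed the filter of a mean of at least 10 reads, which 18586 genes passed.

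**Figure D1:**
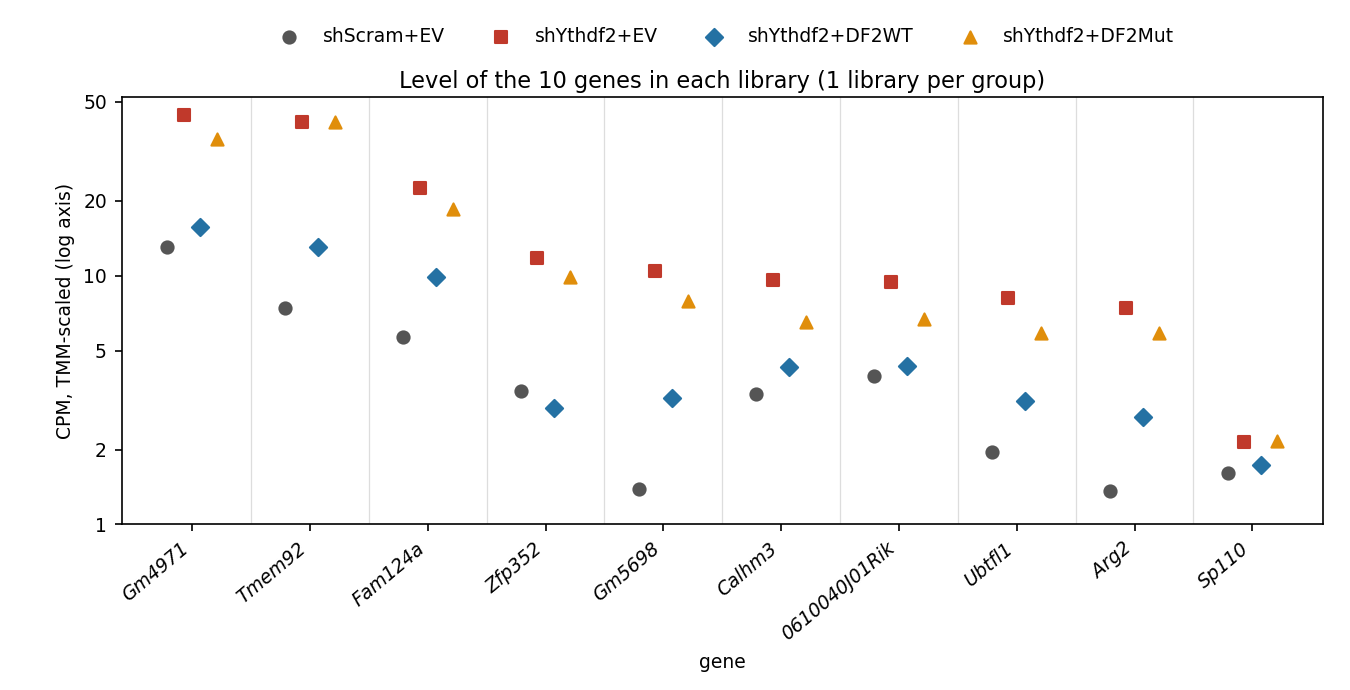
Level of each of the 10 genes in the 4 libraries, as TMM-scaled CPM on a log axis, with 1 point per library and no error bars since each group had 1 library. The shYthdf2+EV and shYthdf2+DF2Mut points lie above the shScram+EV and shYthdf2+DF2WT points for all 10 genes, and the 4 points of *Sp110* lie closest together, between 1.61 and 2.17 CPM.

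*Arg2* encodes the mitochondrial arginase, which splits arginine into ornithine and urea. On mm39 it lies on chromosome 12 from 79177562 to 79203075 on the plus strand, with 8 exon blocks. It had 43 control and 267 knockdown reads, with 89 in the wild-type and 188 in the mutant rescue. The knockdown library was the highest and the control the lowest, with a ratio of 5.41-fold (95% interval 3.45 to 9.05). The wild-type rescue held 36.5% of the knockdown level, and the mutant was above the wild-type by a log2 ratio of 1.12 (0.60 to 1.68). Exons of *Vti1b* and *Gm40462* cover 463 of the 1417 exon bases of *Arg2* (32.7%), and reads over shared exons were not counted for either gene. *Vti1b* had 1387, 1413, 1563 and 1174 reads in that order, and its log2 ratio on knockdown was -0.16. *Arg1*, the cytosolic arginase of the liver, had between 3 and 10 reads.

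*Calhm3* belongs to the calcium homeostasis modulator family of large-pore channels. It lies on chromosome 19 from 47140138 to 47146203 on the minus strand, and the table counts it as 1 block of 6066 bases with no intron taken out. It had 106 reads in the control, 347 in the knockdown, 142 with wild-type and 208 with mutant YTHDF2. The mutant rescue lay between the knockdown and the wild-type rescue, 0.56 below the first on the log2 scale and 0.60 (0.15 to 1.06) above the second. The log2 ratio on knockdown was 1.52 (1.07 to 2.00). Among its relatives, *Calhm2*, the nearest neighbour at 13.4 kb, had 178, 243, 233 and 207 reads, and its log2 ratio on knockdown was 0.26 (-0.14 to 0.67). *Calhm5* had 208, 365, 200 and 270 reads and a ratio of 0.62 (0.27 to 0.99). *Calhm6* had 41, 52, 24 and 30 reads, and *Calhm1* and *Calhm4* had 10 or fewer in any library.

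*Fam124a* is a gene of little known function and lies on chromosome 14 from 62793186 to 62845935 on the plus strand. It had 180 reads in the control library, 810 in the knockdown, and 324 and 590 in the wild-type and mutant rescues. Its ratio on knockdown was 3.95-fold (3.14 to 5.03), and 24.6% of that excess remained with wild-type YTHDF2, the largest share among the 10 genes. Its paralog *Fam124b* had 19, 23, 7 and 12 reads.

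*Ubtfl1* encodes an HMG-box protein related to the nucleolar transcription factor UBTF, and lies on chromosome 9 from 18315714 to 18322798 on the plus strand. It had 62 control and 293 knockdown reads, with 103 in the wild-type and 187 in the mutant rescue. The knockdown library was 4.13-fold (2.80 to 6.33) above the control, and the wild-type rescue was below both of the high libraries. *Ubtf* itself, which acts in ribosomal RNA transcription in all cells, had 9640, 12638, 11034 and 10569 reads, and its log2 ratio on knockdown was 0.20 (0.15 to 0.26).

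*Sp110* encodes a nuclear body protein of the SP100 family and lies on chromosome 1 from 85498462 to 85538571 on the minus strand. It had 51 reads in the control, 77 in the knockdown, 57 with wild-type and 69 with mutant YTHDF2. The control and the wild-type rescue were again the lower libraries, but the 4 values lay close together. Its log2 ratio on knockdown was 0.41 (-0.35 to 1.19), and the intervals of all 6 of its ratios held 0. At this depth no difference of *Sp110* was detectable. Its relative *Sp140*, whose exons overlap 160 of its 3398 exon bases, had 52, 77, 43 and 54 reads, and *Sp100* had 7 or fewer in any library.

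*Zfp352* encodes a zinc finger protein that is well known as a transcript of the 2-cell embryo, and lies on chromosome 4 from 90107057 to 90113924 on the plus strand. It had 109 reads in the control library, 422 in the knockdown, and 97 and 314 in the wild-type and mutant rescues. The wild-type rescue was at the level of the control, a log2 ratio of -0.23 (-0.82 to 0.36), and it was the 1 member for which the wild-type rescue was the lowest library. The fall from the knockdown to the wild-type rescue was -1.99 (-2.48 to -1.54), the largest among the 10 genes. The mutant exceeded the wild-type by 1.74 (1.27 to 2.24), also the largest.

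*Tmem92* encodes a transmembrane protein and lies on chromosome 11 from 94668043 to 94673529 on the minus strand. It had 234 control and 1492 knockdown reads, with 431 in the wild-type and 1325 in the mutant rescue. The mutant rescue stood at the level of the knockdown, with a log2 ratio of 0.01 (-0.15 to 0.16). In the wild-type rescue it was lower than in the knockdown, at -1.66 (-1.89 to -1.44), and was 1.77-fold above the control.

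*0610040J01Rik*, named by its RIKEN clone, lies on chromosome 5 from 63969834 to 64056968 on the plus strand. It had 125 reads in the control, 340 in the knockdown, 143 with wild-type and 214 with mutant YTHDF2. With 2.39-fold (1.78 to 3.25), it had the smallest ratio on knockdown after *Sp110*. Only 50.4% of its excess remained with mutant YTHDF2, which with 50.6% for *Calhm3* was the smallest share.

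*Gm4971* and *Gm5698* are predicted genes with 1 exon block each. On the minus strand of chromosome 7, from 73335240 to 73336311, *Gm4971* had 411 reads in the control library, 1587 in the knockdown, and 518 and 1128 in the wild-type and mutant rescues. On that of chromosome 1, from 31016327 to 31017049, *Gm5698* had 44, 376, 106 and 252 reads in the same order. Both were high in the knockdown and mutant libraries. *Gm5698* had the largest ratio on knockdown of the 10, 7.44-fold (4.82 to 12.3), and was the 1 member still at least 2-fold above the control in the wild-type rescue, where its log2 ratio was 1.20 (0.47 to 2.00). Per kilobase of exon, the order of levels in shYthdf2+EV began with *Gm4971* at 41.2 FPKM, *Tmem92* at 19.0 and *Gm5698* at 14.5, and ended with *Calhm3* at 1.59 and *Sp110* at 0.630.

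On knockdown, 9 of the 10 genes rose at least 2-fold over shScram+EV, and *Sp110* was the exception. Across all tested genes this ratio was reached by 7.1%, but the list was made with these ratios known, and nothing is read from the contrast. The members' median was 1.87 on the log2 scale (3.66-fold), against 0.00 over all tested genes. The intervals of the 9 genes lay above 0. *Gm5698*, *Tmem92* and *Arg2* stood highest, with intervals that overlap each other.

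In the wild-type rescue, 9 members stood at least 2-fold below shYthdf2+EV, where 5.58% of all tested genes were. The median was -1.41, and the values ran from -1.99 for *Zfp352* to -0.30 for *Sp110*. In the mutant rescue, 0 of the 10 did so, against 3.38% of all tested genes. The median was -0.32. In all, 8 genes were lower and 2 higher, and for 6 genes, *Calhm3*, *0610040J01Rik*, *Ubtfl1*, *Gm5698*, *Gm4971* and *Fam124a*, the interval lay below 0. Both of these comparisons share the shYthdf2+EV library with the knockdown ratio, and the list was made with their ratios known too.

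The mutant against the wild-type YTHDF2 shares no library with the knockdown comparison. All 10 genes were higher with the mutant, with a median log2 ratio of 1.02 against -0.01 over all tested genes, and the intervals of 9 lay above 0. The 5 genes *Zfp352*, *Tmem92*, *Gm5698*, *Gm4971* and *Arg2* were at least 2-fold higher, where 5.4% of all tested genes were. The other members lay between 0.32 for *Sp110* and 0.91. As on knockdown, the list was made with these ratios known, and nothing is read from the contrast with all tested genes. This comparison also moved with GC content. Over 16726 tested genes with a transcript GC value, the median ratio was 0.29 in the lowest of 10 bins of GC and -0.32 in the highest. Relative to genes of like GC, the 9 members with a GC value had a median of 0.98. The 4 genes then at least 2-fold higher were *Tmem92*, *Zfp352*, *Gm4971* and *Fam124a*, which moved from 0.91 to 1.01, while *Gm5698* had no GC value. *Arg2* moved from 1.12 to 0.98, *Ubtfl1* from 0.91 to 0.61 and *Calhm3* from 0.60 to 0.92.

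**Figure D2:**
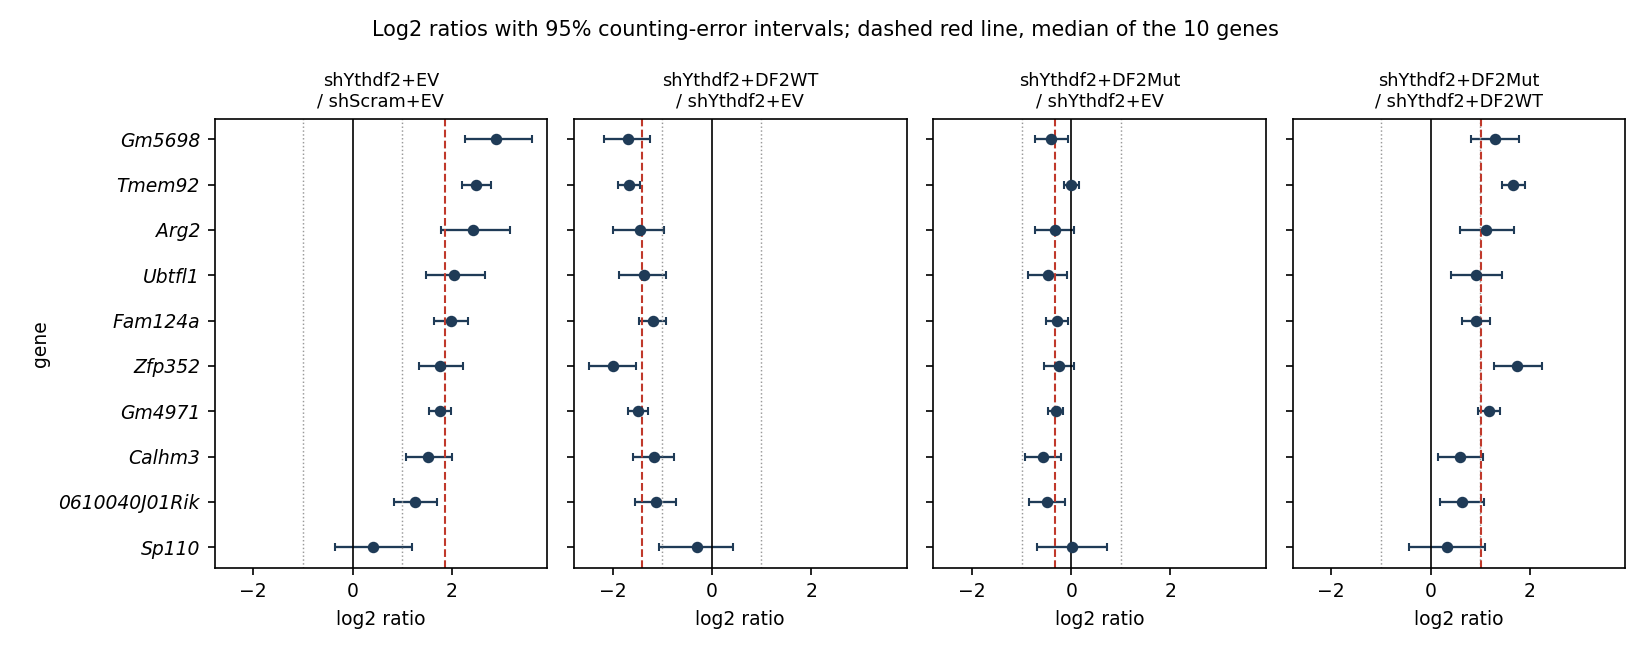
Log2 ratio of each gene in 4 comparisons, with 95% Clopper-Pearson intervals on read pairs as bars, dotted lines at 2-fold in either direction and the median of the 10 genes as a dashed red line. The medians stand at 1.87, -1.41, -0.32 and 1.02 from left to right, and *Sp110* crosses 0 in every panel.

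**Figure D3:**
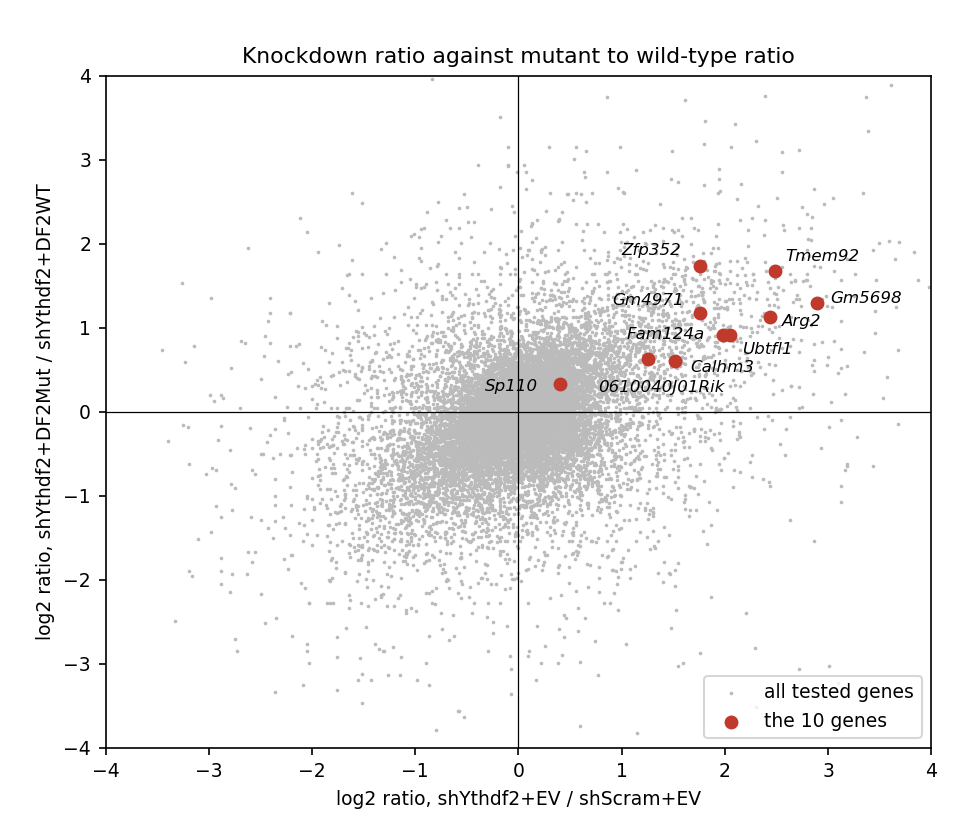
Knockdown ratio, shYthdf2+EV over shScram+EV on the log2 scale (horizontal), against that of shYthdf2+DF2Mut to shYthdf2+DF2WT (vertical), which share no library, with 18586 tested genes as grey points and the 10 genes in red. The 10 genes lie above 0 on both axes, from *Sp110* at 0.41 and 0.32 to *Gm5698* at 2.90 and 1.29, and 59 of the tested genes lie beyond the axes. The 10 genes were chosen with these ratios known.

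Against the control, the wild-type rescue kept a median of 0.52 (1.43-fold), with 9 genes above shScram+EV and *Zfp352* below. *Gm5698* was the 1 gene at least 2-fold higher, where 3.82% of all tested genes were, and for 6 of the 10 the interval lay above 0. Relative to genes of like GC, the median of the 9 members with a GC value was 0.22, against 0.36 without that step, and *Arg2* was also at least 2-fold higher at 1.08. The mutant rescue kept a median of 1.54 and 7 genes at least 2-fold above the control, where 6.55% of all tested genes were. *Arg2*, *Fam124a* and *Tmem92* held log2 ratios of 0.98, 0.79 and 0.82 above the control with wild-type YTHDF2, whereas *0610040J01Rik* held 0.13 (-0.37 to 0.65) and *Gm4971* 0.27 (0.01 to 0.55). In 7 genes the libraries ran in the order shScram+EV, shYthdf2+DF2WT, shYthdf2+DF2Mut, shYthdf2+EV from low to high. In *Tmem92* and *Sp110* the mutant stood at or above the knockdown within counting error.

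The name of the list holds for some members more than for others. *Calhm3*, *Fam124a* and *0610040J01Rik* had no alignment of at least 150 bases to the transcript of another gene in GENCODE M21, and *Arg2* aligned only to the overlapping *Vti1b*. *Gm4971* is annotated there as a processed pseudogene, with 98.2% identity to *Gm4930* over 1043 bases. *Gm4930* had 10, 12, 4 and 31 reads. *Zfp352* shared 95.2% identity over 1650 bases with *Zfp353-ps*, which had 12, 64, 12 and 15 reads. On knockdown that pseudogene was higher by 2.18 (0.95 to 3.78), but with mutant YTHDF2 it was 1.88 (-3.29 to -0.74) below the knockdown, where *Zfp352* was at -0.25. *Sp110* shared 96.5% identity over 1058 bases with *Gm15753*, which had 6 or fewer reads in any library. Reads that fit several places were not counted, so the levels of these members may be too low, to a degree that was not measured.

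*Ubtfl1*, *Tmem92* and *Gm5698* had neighbours that were high with them. Within 250 kb of the 10 genes there were 51 other genes whose mean count was 50 or more, and 6 of them were at least 2-fold higher on knockdown, all near these 3 members, against 3.55% of all genes at that count. *Pdk2*, 243.6 kb from *Tmem92*, was at least 2-fold lower, with 149 control and 79 knockdown reads. *Gm19174*, a processed pseudogene 1.56 kb from *Ubtfl1* with 88.3% identity to it over 983 bases, had 14 control and 185 knockdown reads, with 34 in the wild-type and 134 in the mutant rescue. It was high and low in the same libraries as *Ubtfl1*, with a log2 ratio of 3.49 (2.44 to 4.89) on knockdown. Next to *Tmem92* stood 4 unprocessed pseudogenes, *Gm11546*, *AA623943*, *Gm11543* and *Gm11544*, within 62.1 kb and each with 168 or 179 bases aligned to it at 83.9% to 97.2% identity. *Gm11546*, the nearest of them at 14.5 kb, had 118, 525, 206 and 471 reads, and *Gm11543* had 233, 1474, 434 and 1116. The log2 ratios of the 4 on knockdown were between 1.38 and 2.64, and all but the nearest were named after their values were seen. On the other side of *Tmem92*, the pseudogene *Gm11545* had 78, 145, 93 and 155 reads and a ratio of 0.71 (0.13 to 1.31). *Gm5699*, 20.2 kb from *Gm5698* and of the same exon length of 723 bases, had 33, 244, 67 and 193 reads and a ratio of 2.68 (1.95 to 3.54). The sequences of that pair were not compared here. Around the other members the 30 neighbours with a mean count of 50 or more had ratios between -0.75 and 0.62. At lower counts, *Gm5802* near *Fam124a* had 10 control and 47 knockdown reads, and *LOC118567331* near *Sp110* had 14 and 55. *Chad* near *Tmem92* went the other way, with 35 and 15.

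**Figure D4:**
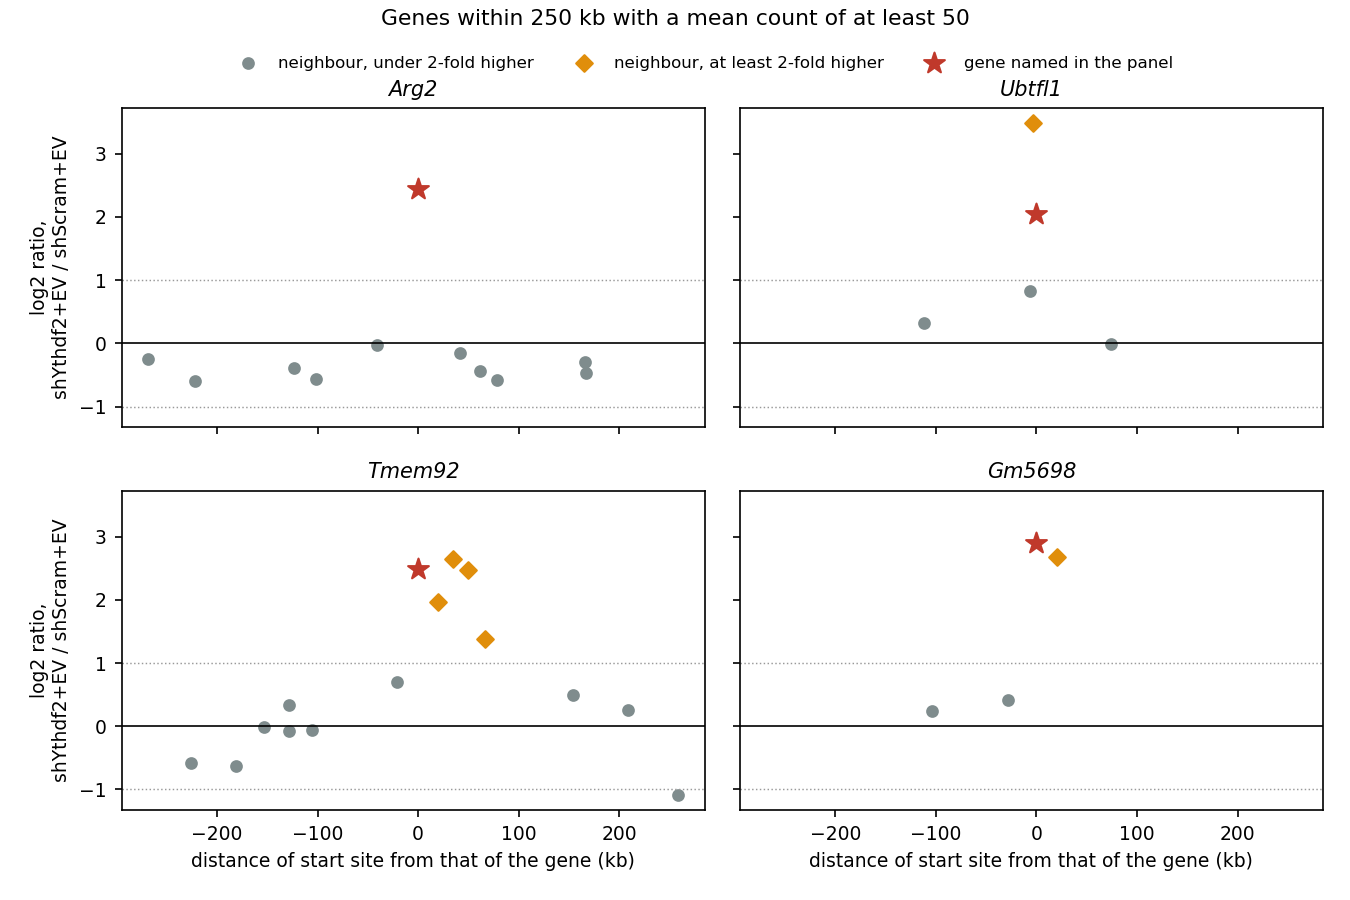
Knockdown ratio, shYthdf2+EV over shScram+EV on the log2 scale, for genes with a mean count of 50 or more within 250 kb of 4 members, plotted against the distance between start sites in kb (positive toward higher coordinates), with the member as a star and neighbours at least 2-fold higher as diamonds. The 10 neighbours of *Arg2* lie between -0.60 and -0.02, whereas 4 neighbours of *Tmem92* lie between 1.38 and 2.64.

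*Arg2* was high on a chromosome whose median was low. For the 418 other chromosome 12 genes of mean count 200 or more, the median log2 ratio on knockdown was -0.29, where the medians of the other 18 autosomes lay between -0.04 and 0.04. The 10 neighbours of *Arg2* with a mean count of 50 or more were lower on knockdown, with a median of -0.41. Below that count, *Gm8255* had 10 control and 37 knockdown reads and *Gm40462*, which overlaps *Arg2*, had 28 and 50, and both ratios were above 0, at 1.66 and 0.64. The ratio of *Arg2*, 2.44, was 2.72 above the chromosome median, and 0 of the 418 genes were as high, although *Arg2* itself had a mean count under 200. Of all 735 tested genes of chromosome 12, 54 were at least 2-fold higher on knockdown, among them *Gm8300* at 1.60 and *Gm2027* at 1.98, so a high ratio there was not particular to *Arg2*. The chromosome median was -0.10 in the wild-type and -0.26 in the mutant rescue, each against shScram+EV, and relative to it *Arg2* stood at 1.09 and 2.37. Whether the fall of chromosome 12 belongs to the hairpin or to the lines cannot be told apart.

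The sequence upstream of the start was taken from RefSeq on GRCm38.p6, which matched 5 of the 10 genes with 6 windows of 250 bases. These 3 are shown because *Zfp352* and *Sp110* share the longest run found between any members, although *Zfp352* moved across the libraries and *Sp110* did not detectably, and because *Fam124a*, which rose without it, holds a start of another kind. Each is written 5′ to 3′ on the strand of the gene and ends at the base before the start, and the capitals mark TTAATC on either strand, letters picked out after the windows were seen. The windows are chr4:90218570-90218819 on the plus strand, chr1:85603892-85604141 on the minus strand (the upstream of the RefSeq starts of *Sp110*) and chr14:62555487-62555736 on the plus strand.
Zfp352: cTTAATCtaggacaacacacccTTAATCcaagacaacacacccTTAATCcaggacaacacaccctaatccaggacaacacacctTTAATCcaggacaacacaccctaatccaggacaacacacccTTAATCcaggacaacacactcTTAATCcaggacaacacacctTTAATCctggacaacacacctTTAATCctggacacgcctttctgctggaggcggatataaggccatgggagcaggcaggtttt
Sp110: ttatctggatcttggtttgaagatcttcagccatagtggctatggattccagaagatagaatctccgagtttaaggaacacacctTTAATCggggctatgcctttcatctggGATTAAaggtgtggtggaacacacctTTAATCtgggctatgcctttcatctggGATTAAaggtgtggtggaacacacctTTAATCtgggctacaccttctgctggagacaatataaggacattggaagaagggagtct
Fam124a: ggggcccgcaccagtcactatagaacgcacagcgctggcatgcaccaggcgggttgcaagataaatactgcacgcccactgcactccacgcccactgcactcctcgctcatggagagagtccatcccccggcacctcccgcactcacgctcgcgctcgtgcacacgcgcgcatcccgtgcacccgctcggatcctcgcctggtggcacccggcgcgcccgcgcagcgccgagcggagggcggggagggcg

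The *Zfp352* window is a tandem array. It held TTAATC 8 times, at spacings of 21 to 41 bases from position -249 to -62 relative to the start, and of the 32851 windows of all genes it was the 1 with that many. The upstream window of *Sp110* held TTAATC 5 times, counting both strands. At least 1 copy was found in 6.66% of all windows. The run shared by the 2 genes, AACACACCTTTAATC, occurred 3 times in each of them and in 23 windows in all (0.07%). These belonged to 22 genes. Of the other 20, 10 passed the filter, and 6 of those were at least 2-fold higher on knockdown, against 7.1% of all tested genes, with a median log2 ratio of 1.15. This run was found after the values were known, and a match of letters is a description and not a binding site. GATTNAATC, the core of the DUX site, was in none of the 6 windows and in 0.247% of all. TATAAA was in none of the 6 and in 12.4% of all. TGCACAC, a site of ZSCAN4, was in that of *Fam124a* alone and in 3.67% of all. *Fam124a* and *0610040J01Rik* had windows of 70.4% and 65.6% GC with 30 and 26 CG dinucleotides, against medians of 52.4% and 6, whereas *Zfp352* and the upstream start of *Sp110* had 2 each and *Ubtfl1* had 0.

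The letters GGACT, a common form of the m6A consensus, were counted in the transcripts of the 9 members that GENCODE M21 holds. Protein-coding genes had a median of 1.01 per kilobase. *Fam124a* had 2.25, *Sp110* 2.08, *Ubtfl1* 2.03 and *Tmem92* 1.47, and the other 5 were under the median, among them *Zfp352* with 0.439 and *Arg2* with 0 copies in 1428 bases. The difference between the mutant and the wild-type YTHDF2 was seen in members above and below the median. That log2 ratio was 1.67 for *Tmem92*, above the median, and 1.74 for *Zfp352*, below it. A relation between GGACT and the ratio was not tested. No m6A was measured in these libraries.

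Among genes whose mean count was 50 or more, the 5 whose centred log2 CPM over the 4 libraries lay nearest the mean profile of the 10 were *Fgfbp1*, *Gm18765*, *Gm4782*, *Gm2027* and *Gm52032*, at Euclidean distances of 0.036 to 0.12. *Fgfbp1*, which encodes a secreted carrier of fibroblast growth factors, had 52, 220, 80 and 158 reads. *Ubtfl1* and *Gm4971* lay nearest to that profile among the members, at 0.16 and 0.17, and *Sp110* farthest at 1.14.

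Most 2C genes of the repeated families were also higher on knockdown. Of 31 listed genes 28 were tested, and 24 were at least 2-fold higher on knockdown, where 7.1% of all tested genes were. Their median was 1.61 against 1.87 for the 10 genes. The highest were *Tcstv1*, which went from 1 read to 43, at 4.69 on the log2 scale (1.87 to 15.28), and *Tdpoz4*, from 34 to 187, at 2.26 (1.52 to 3.11). The lowest were *Pramel7* at -0.27 (-1.16 to 0.60) and *Trim43c* at -0.11 (-0.58 to 0.35). With mutant YTHDF2, 23 were lower than in the knockdown, 2 of them at least 2-fold, against 3.38% of all tested genes. At least 2-fold higher with the mutant was 1 gene. With wild-type YTHDF2 26 were lower, 22 of them at least 2-fold, against 5.58% of all tested genes, *Pramel7* and *Trim43a* being the exceptions. For the mutant against the wild-type YTHDF2 their median was 1.06, against 1.02 for the 10 genes. Against the control, the wild-type rescue left the family genes at a median of 0.17 and the 10 genes at 0.52, a difference that was not tested. Without *Arg2* the median of the members was 0.36. A further list of 14 2C genes and regulators held together less. Of 12 tested, 3 were at least 2-fold higher on knockdown, against 7.1% of all tested genes, and 2 lower, with a median of 0.39. *Spz1*, with 34 and 310 reads, was at 2.99 (2.28 to 3.82) and *Lmx1a* at 1.61 (1.04 to 2.24), whereas *Chit1* was at -1.94 (-3.23 to -0.86) and *Cyp2b23* fell from 1383 to 555 reads. All lists were written with earlier results of these data known.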

How the data were processed

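Poly(A)+ RNA was sequenced paired-end after a stranded dUTP protocol. The authors deposited 1 table of raw read counts per gene, made, per the file headers, with featureCounts 2.0.3 on the mm39 RefSeq annotation at exons summed by symbol. The headers show unstranded counting of single reads, not pairs, without reads that aligned to several places or overlapped several genes. The submitters' processing notes name fastp 0.19.4, HISAT2 2.2.1, DESeq2 1.40.2 and mm10. The build in the notes differs from that in the header, and coordinates here follow the header, except for promoter windows, which are on GRCm38.p6. The methods of the study describe replicates, but the labels give 1 library per group.

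Totals were 32382858 reads in the control, 35742335 in the knockdown, 32584252 with wild-type and 31533129 with mutant YTHDF2. A count of 3, taken as the floor, was worth 0.0835 to 0.0949 CPM. Counts were TMM-scaled with edgeR 4.0.16 (R 4.3.3), with a prior count of 0.5 in log2 ratios. A mean count of at least 10 was required, and genes were then compared by size of ratio only, at 2-fold. Intervals are 95% Clopper-Pearson bounds on read pairs, taken as reads divided by 2, and amplified reads are not independent molecules. Transcripts of GENCODE M21 were aligned with blastn 2.17.0, keeping at least 150 bases at 80% identity, and for *Ubtfl1*, whose transcript holds repeats, at least 500 bases. The scaling was tested on simulated counts. Genes named are the 10 members, *Ythdf2*, their relatives, the nearest neighbours on each side, the 5 genes of nearest profile, and the 2 highest and 2 lowest of each 2C list. Of the lists, *Platr31* was not matched, and *Pramel17* was matched as a synonym. Gene names outside this rule were chosen after their values were seen. Some alignments and their values are not reported here. The members and lists were chosen with earlier results of these data known. As alternatives, scaling by total counts, DESeq2 1.42.0 size factors, upper quartiles or TMM on nuclear genes, a prior count of 5, other filters, 1.5-fold, required intervals, summed counts and leaving out *Arg2* were tried. The comparison with genes of like GC, in 10 bins, was added after seeing the data.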

Additional observations from a re-analysis of the deposited data

How the results depend on the processing

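No paired analysis was possible because each group had 1 library. The alternatives gave 48 values for the members' medians and 360 for single members, and 0 of them changed direction where the interval was on one side of 0 or moved beyond counting error. Of 48 counts of members, 45 stayed within 1.5 times. The members higher with the mutant than the wild-type construct were 5 at 2-fold and 9 at 1.5-fold, where 5.4% and 12.2% of all tested genes were. Those higher with the wild-type construct than in shScram+EV were 1 at 2-fold, 5 at 1.5-fold and 2 under scaling by total counts. The shares of all tested genes there were 3.82%, 9.28% and 4.21%. *Arg2* relative to genes of like GC fell below 2-fold for mutant against wild-type. The share of all tested genes past the ratio depended on the filter. On knockdown 7.1% were at least 2-fold higher with a mean count of at least 10, 14.9% with at least 1, and 3.55% with at least 50, and 13.8% were at least 1.5-fold higher. At a minimum mean of 50, the other comparisons gave 2.37% for wild-type below knockdown, 0.543% for mutant below knockdown, 2.29% for mutant above wild-type, 0.779% for wild-type above control and 3.23% for mutant above control. The depth of 43 to 109 reads in the control for 6 of the 10 genes sets the width of their intervals, and the 51 to 77 reads of *Sp110* could not show a difference of its size. With 1 library per group, differences between lines cannot be told apart from the groups.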

Other observations

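Genes outside the 10 whose upstream 250 bases hold the run shared by *Zfp352* and *Sp110* were looked up after their values were seen, and are given as values only. *Eif4a3l1*, a relative of an exon junction complex helicase, had 1061 reads in the control, 3431 in the knockdown, 1355 with wild-type and 1958 with mutant YTHDF2. *LOC105246046* had 47, 273, 89 and 183 reads in the same order, *Gm33248* 36, 157, 85 and 146, and *Gm35974* 42, 139, 48 and 79. All 4 were at least 2-fold above the control in the knockdown library, with log2 ratios from 1.51 to 2.34. After scaling, *Gm33248* was highest with the mutant construct, by a log2 ratio of 0.07 over the knockdown, and the others in the knockdown library. *Gm12790* and *Gm12724* were also past 2-fold, at 1.26 and 1.04. *Gm4340*, with 1856, 2771, 2733 and 3940 reads, was highest with the mutant construct and was not lowered by the wild-type construct. *Pemt*, which makes phosphatidylcholine in the liver, had 57, 79, 91 and 63 reads and was highest with the wild-type construct.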
